A study of Mus musculus with 6 samples.

Results

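MicroRNAs are short RNAs that load into Argonaute proteins and pair with messenger RNAs, mostly through bases 2 to 8 from their 5′ end, the seed, and so reduce the translation and stability of those messages. The registry miRBase numbers them roughly in the order in which they were registered, so that high numbers mostly belong to sequences first found by deep sequencing, many of which overlap repeats or introns and are less well characterised than the classical families. Each hairpin can give a product from its 5′ arm, named 5p, and its 3′ arm, named 3p. The mouse entries numbered 3000 to 4999 were chosen here by number, with any letter or arm, except that the rule left out miR-3102-5p and miR-3960. This gave 143 of the 1247 mouse miRNAs on the array. These 143 were read by 296 of its 3105 probes.

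The study measured miRNAs in mProx24, a cell line from the proximal tubule of a C57B6 mouse, grown in DMEM with 10% fetal calf serum. The 6 conditions had 1 Agilent array each, from 100 ng of RNA. Control cells were at 20% oxygen with normal glucose. The high glucose array had high glucose at 20% oxygen, and the labels used here give no concentration for it. The palmitate array had 150 µM palmitate, a saturated fatty acid given with 0.15% albumin, for 9 h at 20% oxygen. The hypoxia array had 1% oxygen for 12 h. The triple stimuli array combined high glucose with 12 h at 1% oxygen and then 9 h of the same palmitate with albumin. The last array added 0.4 µg/ml rapamycin, an inhibitor of the growth kinase mTOR, for 12 h before the palmitate. The labels give albumin only with palmitate, so the effects of the pair cannot be told apart. All cells came from 1 line, and no condition was repeated.

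The 6 arrays lay on 1 slide, the 20% oxygen arrays in 1 row and the 1% oxygen arrays in the other, so oxygen and slide row cannot be told apart. Between 11.4% and 13.3% of spots were well above background on each array, and 0 were saturated. Intensities are given after the arrays were scaled to a common 75th percentile of the probes detected on all 6, which lay before that between 295.5 and 382 unscaled units. A miRNA was called detected where at least 1 of its probes had at least 0.5 of its unflagged spots well above background. Of the markers of the labelled cell type, 0 of 4 kidney tubule miRNAs (miR-192-5p, miR-194-5p, miR-204-5p and miR-215-5p) and 0 of 5 members of the epithelial miR-200 family were detected on any array, whereas 5 of 5 members of the miR-30 family were detected on all 6. Fewer producing cells and less RNA per cell cannot be told apart in these bulk samples.

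The labels of 2 arrays are in doubt. In the authors' deposited value table, the column labelled high glucose matched the scanner file labelled palmitate by 1 factor, within 0.1%, for 15 of 19 members, against 2 of 18 for the file of its own label. The column labelled palmitate matched the file labelled high glucose for 17 of 19 members and its own for 0 of 18. The other 4 columns matched their own files, with 13 of 20 members for control, 14 of 19 for hypoxia, 16 of 21 for triple stimuli and 18 of 20 for rapamycin. The text uses the scanner files' labels. If they are the exchanged ones, each value given below for the high glucose array belongs to palmitate and the reverse. That includes the counts of detected members, the ratios given near the detection limit and the order of the arrays. The counts and calls that an exchange alters are given beside them.

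The mature sequences of the 10 members that were detected on every array and have an entry in RefSeq (GRCm38.p6) are shown because the measured results rest on them. The capitals mark the seed, bases 2 to 8.
miR-3069-3p: uUGGACACuaaguacugccaca
miR-3072-5p: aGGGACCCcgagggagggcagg
miR-3081-5p: gACUGGAGcuuggagcggugagc
miR-3082-5p: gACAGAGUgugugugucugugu
miR-3098-5p: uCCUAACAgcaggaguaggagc
miR-3473a: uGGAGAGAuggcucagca
miR-3473b: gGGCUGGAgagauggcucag
miR-3473e: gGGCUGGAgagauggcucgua
miR-3963: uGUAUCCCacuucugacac
miR-3968: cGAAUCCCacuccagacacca
Seeds were mostly unlike. The 120 members matched to RefSeq carried 117 distinct seeds, and miR-3473b and miR-3473e, which share GGCUGGA, were the only detected pair among them with a common seed. The 3 miR-3473 miRNAs shown also share the run UGGAGAGAUGGCUC, which begins at base 1 of miR-3473a and at base 5 of the other two, so that miR-3473a has another seed, GGAGAGA. The mouse B2 short interspersed repeat, a family of retroposed sequences spread over the genome, carries the same kind of sequence near its start. miR-3963 and miR-3968 share AUCCCACU from base 4 but their seeds are not the same.

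The annotated loci of these 10 sequences lie in unlike places in the genome. Whether the measured signal arises at these loci was not tested. miR-3081-5p lies at chr16:44558092-44558114 on the minus strand within Boc, which encodes a Hedgehog co-receptor. miR-3072-5p lies at chr12:109747893-109747914 on the plus strand within Mirg, a noncoding RNA of the imprinted Dlk1-Dio3 region. miR-3069-3p lies on the same chromosome at chr12:105031078-105031099, minus strand, where the noncoding host gene Snhg10 and the guide RNA gene Scarna13 overlap. The 3 miR-3473 entries are at chrX:162874920-162874937 within Syap1 (miR-3473a, minus strand), chr10:41670774-41670793 within Ccdc162 (miR-3473b, plus strand) and chr5:31667296-31667316 within Rbks (miR-3473e, minus strand). miR-3968 lies at chr11:115447969-115447989 within Trim80, miR-3082-5p at chr17:25831406-25831427 where Jmjd8 and Stub1 overlap, and miR-3963 at chr3:151023839-151023857 in no annotated gene of the table, all on the minus strand. miR-3098-5p lies at chr6:125195807-125195828 on the plus strand, also in no annotated gene. The genes named were found by position alone, without regard to their strand. Whether these positions are exonic or intronic was not analysed here.

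Few members gave a signal. In all, 18 of 143 were detected on at least 1 array (12.6%), and 14 on all 6, against 198 of 1247 (15.9%) and 154 for the whole array. Among let-7 and numbers below 1000, 137 of 798 (17.2%) were detected, among numbers 1000 to 2999 16 of 127 (12.6%), and among numbers 5000 and above 25 of 177 (14.1%). The 2 entries left out by the rule, miR-3102-5p and miR-3960, were both detected on all 6 arrays and are not among the 143. These shares are given as a description, with no test.

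By array, 15 members were detected in control cells, 17 with high glucose, 14 with palmitate, 15 in hypoxia, 17 with triple stimuli and 18 with added rapamycin. With the labels exchanged, 14 belongs to high glucose and 17 to palmitate. The array with the fewest detected members, palmitate, also had the fewest detected miRNAs of any number, 162, and the array with the most members, rapamycin, had 193, the most. The other 125 members were detected on no array. Their highest unscaled intensity had a median of 1.29 and reached 18.3 at most. The 3 with the highest mean among them were miR-3544-3p, between 12.9 and 17.1 unscaled units, miR-3100-3p, between 11.5 and 16.5, and miR-3095-3p, between 9.58 and 18.3. The scanner software's own flag, a looser rule, marked 21 members on at least 1 array and 18 on all 6. At this signal over background, a member that was not detected is not shown to be absent.

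Of the 11 detected members whose opposite arm was also on the array, only miR-3096b-3p and miR-3096b-5p had both arms detected. The other 9 opposite arms were detected on no array. Of these, miR-3102-3p.2-3p lay between 7.82 and 11.03 unscaled units. The others, miR-3069-5p, miR-3072-3p, miR-3077-3p, miR-3081-3p, miR-3082-3p, miR-3085-5p, miR-3092-5p and miR-3098-3p, lay between -4.03 and 3.12. miR-3102-3p, whose 5p arm was detected but left out by the rule, lay between 4.82 and 7.64. The deposited probes of detected members had a median GC content of 58.3% (n = 18), against 54.8% for the undetected members (n = 125). The same medians were 54.2% and 48.7% among all other miRNAs (n = 180 and 924), so detected probes were richer in GC in both sets.

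**Figure D1:**
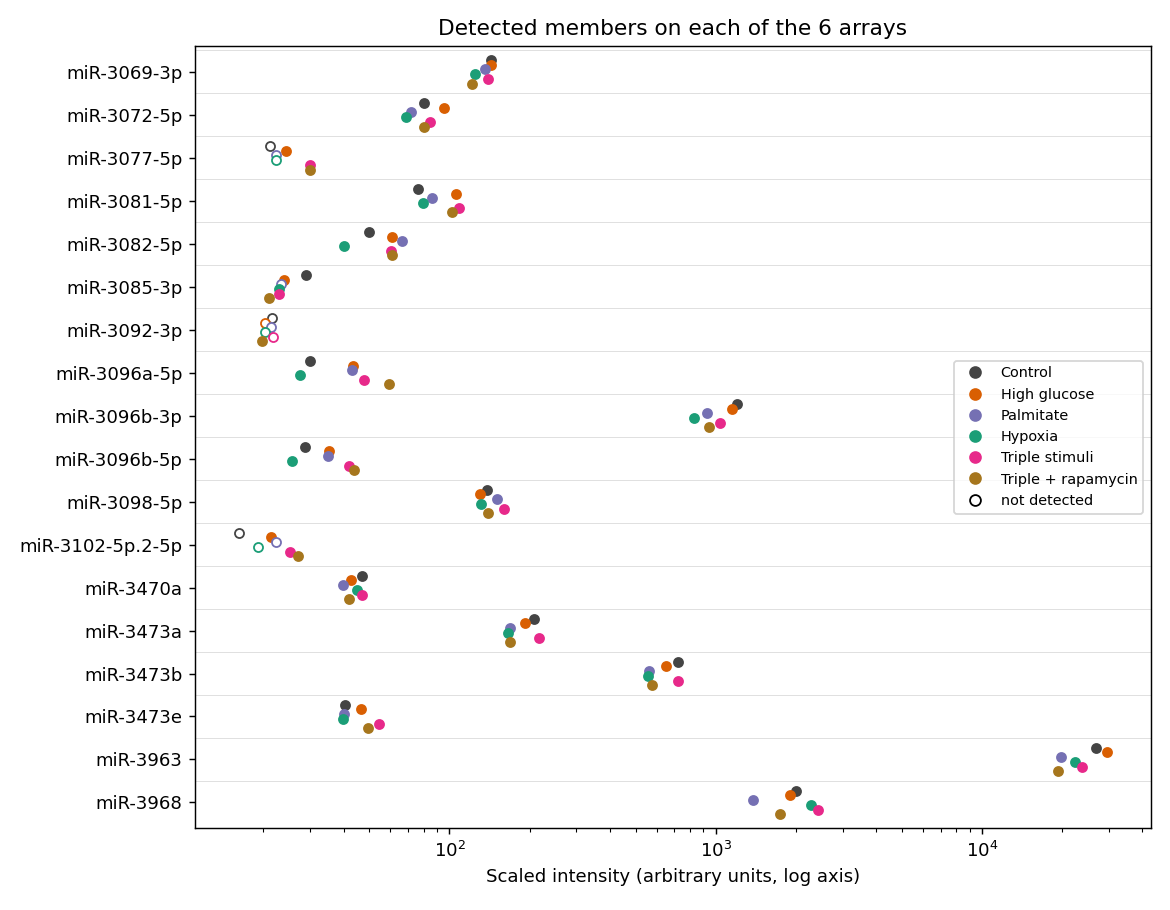
Scaled intensity (arbitrary units, log axis) of the 18 members detected on at least 1 array, 1 point per array, with open points where a member was not detected. Intensities of different miRNAs come from different probes and are not compared; within each row most points lie close together, the widest spread being the 2.16-fold of miR-3096a-5p among members detected on all 6 arrays.

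The members detected everywhere had a wider range over the arrays than the other miRNAs, given here as a description with no test. The highest array lay a median 1.40-fold over the lowest for the 14 members, and 5 of them (35.7%) passed 1.5-fold. Among the other 140 miRNAs detected on all 6 arrays the median was 1.24-fold, and 26 (18.6%) passed 1.5-fold. The 5 were miR-3096a-5p (2.16-fold), miR-3968 (1.75-fold), miR-3096b-5p (1.71-fold), miR-3082-5p (1.65-fold) and miR-3963 (1.53-fold). The probes of miR-3096a-5p and miR-3096b-5p share 15 letters, so these ranges may not be separate. For both of them and for miR-3082-5p, only 1 of 2 probes was detected on all arrays. The lowest value of miR-3963 was that of the rapamycin array, where its spots varied by 28.8% (SD).

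miR-3081-5p, annotated at the Boc locus, had the lowest adjusted p of the members in the glucose split. This split sets the 3 arrays labelled with high glucose against the 3 without. Its scaled intensity was 76.1 in control, 86.0 with palmitate and 79.9 in hypoxia, against 106 with high glucose, 108 with triple stimuli and 102 with rapamycin. All 3 arrays labelled with high glucose were above all 3 without it, and the groups did not overlap. The mean difference was 0.39 on the log2 scale (SE 0.07, 3 against 3 arrays), with an adjusted p of 0.0177 by limma over the 154 miRNAs detected on all 6 arrays. Within 20% oxygen it was 0.39, from 1 array against 2. Within 1% oxygen it was 0.40, but there both arrays with high glucose also had palmitate and the hypoxia array had neither, so glucose and palmitate cannot be told apart at that oxygen level.

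miR-3473e, which carries the B2-like run, was the other member that passed the glucose test. It read 40.6 in control, 40.0 with palmitate and 39.7 in hypoxia, against 46.6 with high glucose, 54.2 with triple stimuli and 49.3 with rapamycin. The groups did not overlap here either, and the 3 arrays without high glucose lay close together. The difference was 0.31 (SE 0.08), with an adjusted p of 0.0448 by limma. It was 0.21 within 20% oxygen, and 0.38 within 1% oxygen, where the value is that of glucose and palmitate together. Only 1 of its 2 probes was detected on all arrays, and with the mean of both probes the difference was 0.06 (limma adjusted p = 0.82).

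Thus 2 of 14 members were higher with high glucose and 0 were lower. Over all 154 miRNAs tested, 13 were higher (8.44%) and 2 lower (1.3%). The groups did not overlap for 4 of 14 members, miR-3081-5p, miR-3473e, miR-3096a-5p and miR-3096b-5p, and for 29.2% of all miRNAs tested, so the members' share was near the background. Under the main scaling the members' median difference was 0.11 and that of all miRNAs tested 0.02. Each array was a separate sample of a different condition, so these p-values measure only the spread between the 6 arrays, which differ in other agents too.

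These 2 calls depend on which arrays enter, on their labels and on the scaling and background correction. With the high glucose and palmitate arrays exchanged, as in the authors' value table, 0 of 14 members passed for glucose and 2 for palmitate, and the glucose difference of miR-3081-5p became 0.19 (limma adjusted p = 0.909). The 4 members with groups that did not overlap would then be separated by palmitate. The count was 0 without the control, hypoxia, triple stimuli or rapamycin array, 1 without the high glucose array and 3 without the palmitate array. The adjusted p of miR-3081-5p by limma was 0.0185 without the palmitate array, and 0.0833, 0.0529, 0.0702, 0.0564 and 0.0646 without the control, high glucose, hypoxia, triple stimuli and rapamycin arrays. That of miR-3473e was 0.0474 without the high glucose array and between 0.107 and 0.135 without any other. Without the palmitate array, miR-3096a-5p (limma adjusted p = 0.0185) and miR-3096b-5p (0.0322) passed as well. With oxygen as a term, 1 member passed, miR-3081-5p (limma adjusted p = 0.0281), and miR-3473e did not (0.0754). Scaling moved the median difference of all miRNAs from 0.02 to between -0.15 and 0.22, and the split of all calls from 13 higher and 2 lower to 8 and 31 with scaling to the median of detected probes, to 6 and 17 with quantile normalisation, to 8 and 3 with scaling over all probes and to 48 and 0 with no scaling. Relative to that median, the difference of miR-3081-5p was 0.37 under the main scaling. By construction it was the same under the other scalings by 1 factor per array. It was 0.36 with quantile normalisation and 0.19 with normexp background correction. The call on miR-3081-5p nevertheless ended with scaling over all probes (limma adjusted p = 0.28) and to the median of detected probes (0.0661). It also ended with quantile normalisation (limma adjusted p = 0.0726) and normexp (0.138). It held with no scaling (limma adjusted p = 0.004), the summed signal (0.0258) and the mean of all probes (0.00703).

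**Figure D2:**
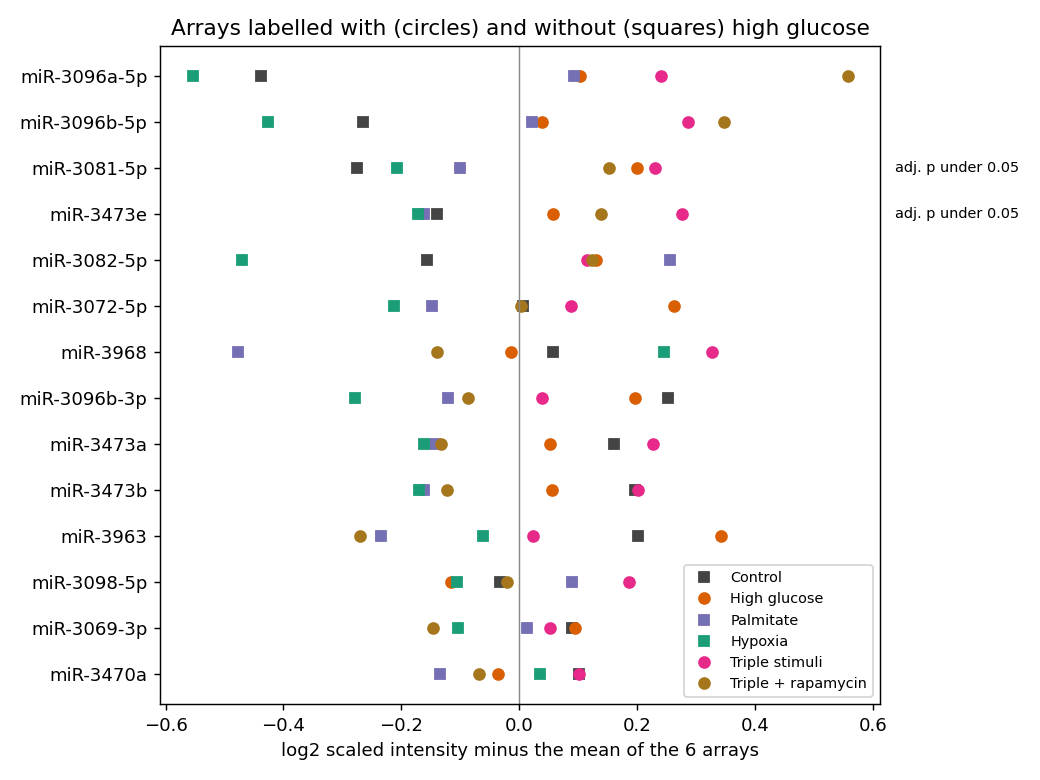
Scaled log2 intensity of the 14 members detected on all 6 arrays, each minus its own mean over the arrays, with circles for the 3 arrays labelled high glucose and squares for the 3 without. Circles lie to the right of all squares for miR-3081-5p, miR-3473e, miR-3096a-5p and miR-3096b-5p, and the first pair of these passed the limma test.

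The miR-3096 hairpins gave the widest range. Their 5′ arm probes overlap, and the deposited sequences are shown because they set how far the readings are separate. The 15 shared letters are in capitals.
miR-3096a-5p: AGTTCTCATCCTTGGcc
miR-3096b-5p: ttagAGTTCTCATCCTTGG
A mature RefSeq sequence was matched to none of the 3 miR-3096 members. miR-3096a-5p read 29.8 in control and 27.5 in hypoxia, 43.4 with high glucose and 43.1 with palmitate, 47.7 with triple stimuli and 59.4 with rapamycin. Only control and hypoxia were low. It was higher with triple stimuli than in control by 0.68 (spot SE 0.09), or 1.60-fold, and this was the only member called in any of the 5 comparisons of single arrays.

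miR-3096b-5p followed the same order of arrays. It read 28.7 in control, 25.6 in hypoxia, 35.4 with high glucose, 35.0 with palmitate, 42.0 with triple stimuli and 43.8 with rapamycin. For both 5′ arm readings, 1 of 2 probes was detected on all arrays. The glucose difference was 0.60 (SE 0.19) for miR-3096a-5p and 0.45 (SE 0.13) for miR-3096b-5p, with limma adjusted p of 0.102 and 0.0839, so neither passed. With the mean of both probes these differences were 0.63 and 0.12 (limma adjusted p = 0.103 and 0.537). With normexp background correction they were 0.13 and 0.06. Within 20% oxygen the glucose difference was 0.27 and 0.16. Within 1% oxygen the arrays with both glucose and palmitate lay 0.95 and 0.74 above hypoxia, a value that belongs to the agents together. In the palmitate split both had an unadjusted p under 0.05, and the limma adjusted p was 0.813 for both. Without the palmitate array both passed the glucose test, as given above. How far 1 of the 2 miRNAs is read by the probe of the other was not tested.

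The 3′ arm of the b hairpin did not follow its 5′ arm. miR-3096b-3p read 1201 in control, 1154 with high glucose, 927 with palmitate, 831 in hypoxia, 1035 with triple stimuli and 948 with rapamycin. Control was highest and hypoxia lowest, and its difference in hypoxia was -0.53 (spot SE 0.02), below the 1.5-fold bound.

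The glucose comparison of single arrays gave 0 of 15 members called, against 6.79% of all miRNAs called higher and 0% lower. A call needed detection on both arrays, at least 1.5-fold and more than 2 standard errors between spots, and has no replicate behind it. Members ran from -0.28 (miR-3085-3p) to 0.54 (miR-3096a-5p), with a median of 0.00386 against -0.05 for all 162. miR-3081-5p was next at 0.48 (spot SE 0.06). If the labels of the pair are exchanged, these are the palmitate differences. The control array is shared with the next 3 comparisons.

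In palmitate 0 of 14 members were called, against 0% of all miRNAs higher and 2.58% lower. The members' median was -0.12 and that of all miRNAs -0.03. miR-3968 was lowest at -0.53 (spot SE 0.03) and miR-3963 followed at -0.44. miR-3082-5p, 1 of 5 members above 0, read 66.5 with palmitate, 60.9 with high glucose, 60.3 with triple stimuli and 60.7 with rapamycin, against 49.99 in control and 40.2 in hypoxia. Its palmitate difference was 0.41 (spot SE 0.06), and only 1 of its 2 probes was detected on all arrays. If the pair of arrays is exchanged, these are the high glucose differences.

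In hypoxia 0 of 15 members were called, against 0% of all miRNAs higher and 1.85% lower. The members' median was -0.19, that of all miRNAs was -0.11, and 2 of 15 members lay above 0. With triple stimuli 1 of 15 members was called higher, miR-3096a-5p, and 0 lower, against 5.62% and 0% of all miRNAs. The median was 0.08 for members and 0.01 for all. Besides miR-3096a-5p, miR-3096b-5p (0.55), miR-3081-5p (0.51) and miR-3473e (0.42) were above the others. The call on miR-3096a-5p ended with scaling over all probes, scaling to the median, quantile normalisation and normexp background correction.

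Adding rapamycin to the triple stimuli gave 0 of 17 members called, against 2.21% of all miRNAs higher and 1.66% lower. The members' median was -0.13 against -0.07 for all 181. miR-3968 had the lowest difference, -0.47 (spot SE 0.01), and miR-3096a-5p the highest, 0.32.

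**Figure D3:**
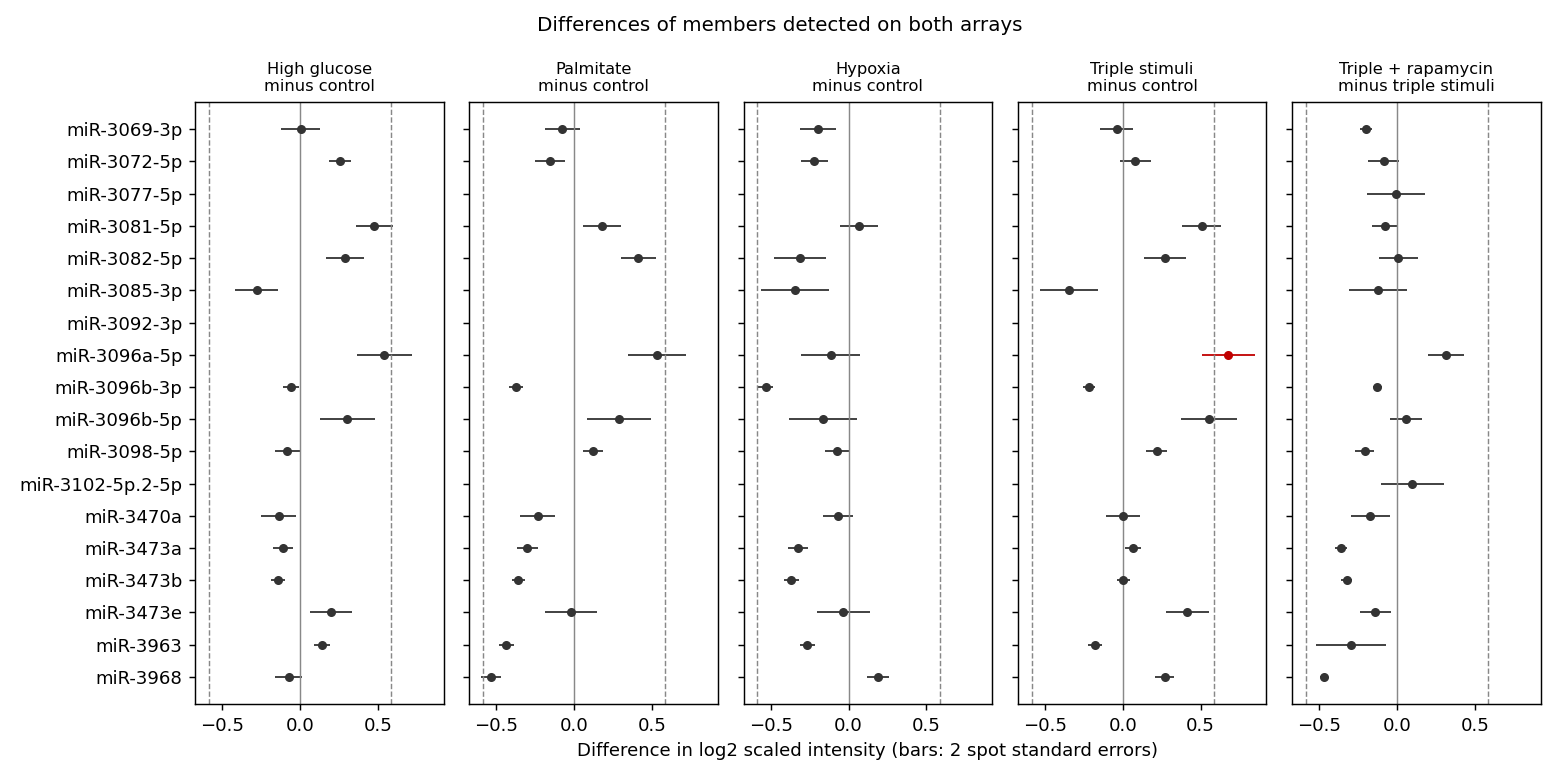
Difference in scaled log2 intensity between single arrays for members detected on both, with bars of 2 standard errors between spots and dashed lines at 1.5-fold. Only miR-3096a-5p with triple stimuli against control (0.68, red) passed the 1.5-fold line with its difference above 2 spot errors.

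The B2-like miRNAs fell into 2 patterns. miR-3473b read 720 in control, 653 with high glucose, 561 with palmitate, 558 in hypoxia, 722 with triple stimuli and 577 with rapamycin. miR-3473a read 207, 192, 168, 166, 217 and 169 in that order. Both were highest in control and with triple stimuli, and lowest in palmitate, hypoxia and rapamycin, where an exchange would put high glucose in place of palmitate. The full complement of the miR-3473b probe also occurs in mature miR-3473a, so these 2 readings are not independent. miR-3473e, whose last bases differ, had its lowest values in control, palmitate and hypoxia instead. The rapamycin difference was -0.36 for miR-3473a, -0.32 for miR-3473b and -0.14 for miR-3473e.

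miR-3470a, whose probe also matches miR-3470b, varied by 1.18-fold at most. It read 46.9 in control, 42.7 with high glucose, 39.9 with palmitate, 44.8 in hypoxia, 47.0 with triple stimuli and 41.7 with rapamycin. miR-3069-3p was as flat, with 143 in control, 144 with high glucose, 136 with palmitate, 125 in hypoxia, 140 with triple stimuli and 122 with rapamycin. miR-3098-5p read 138, 131, 150, 132, 161 and 139 in the same order. It was the only member whose arrays with and without palmitate did not overlap under the scanner files' labels. With the labels exchanged its palmitate groups overlap, and it is separated by glucose instead.

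miR-3072-5p, annotated in the imprinted region, read 80.1 in control, 95.6 with high glucose, 71.9 with palmitate, 68.8 in hypoxia, 84.8 with triple stimuli and 79.9 with rapamycin. The high glucose array was highest, but rapamycin and control overlapped. Its glucose difference was 0.24 (limma adjusted p = 0.222).

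miR-3968 read 2009 in control, 1910 with high glucose, 1387 with palmitate, 2289 in hypoxia, 2421 with triple stimuli and 1752 with rapamycin. Palmitate (or, with the labels exchanged, high glucose) and rapamycin were lowest. The triple stimuli array, which had high glucose and palmitate but no rapamycin, was highest. miR-3963 read 26834, 29568.5, 19833, 22344, 23711 and 19336 in the same order. Its spots on the rapamycin array varied by 28.8% (SD), against 1.62% to 6.23% on the other 5, so its rapamycin difference of -0.29 has a spot SE of 0.11.

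The members detected on only some arrays lay near the detection limit. miR-3077-5p was detected with high glucose (24.3), triple stimuli (30.0) and rapamycin (29.8), and read 21.3, 22.2 and 22.2 in control, palmitate and hypoxia. Its reading was 1.07-fold over the lowest detected signal of the control array with high glucose, with a spot SE of 0.07 on the log2 scale. With triple stimuli it was 1.32-fold over that signal (spot SE 0.08). These ratios leave out the error between spots, and undetected readings can lie above that signal, so they give no minimum increase. miR-3102-5p.2-5p was detected on the same 3 arrays, with high glucose through its other probe, and the probe used here read 21.4, 25.2 and 27.0 there, against 16.1 in control, 22.3 with palmitate and 19.0 in hypoxia. With triple stimuli this reading was 1.11-fold over the lowest detected signal of the control array (spot SE 0.08), which likewise gives no minimum increase. For both miRNAs, the 3 arrays that detected them are those with high glucose, or those with palmitate if the labels are exchanged. The same 3 arrays, high glucose, triple stimuli and rapamycin, also detected the most miRNAs of any number, 189, 183 and 193. Control, palmitate and hypoxia detected 164, 162 and 172. Whether the labelled agents or the signal level of these arrays set the detection was not tested. miR-3085-3p was detected on all arrays except palmitate, with triple stimuli through its other probe only. After scaling it read 29.0 in control and between 21.0 and 23.9 on the other 5. Before scaling it read 25.3 in control, 25.4 with high glucose and between 21.9 and 23.7 on the others, so control was not the highest. Scaled, control read 1.25-fold over palmitate, or over high glucose if the labels are exchanged. This is a ratio of 2 readings and no lower limit. The undetected palmitate reading, 23.24, lay above that array's lowest detected signal, 23.22. miR-3092-3p was detected with rapamycin only, at 19.7, where the lowest detected signal was also the lowest of the 6 arrays, 17.2.

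The oxygen split gave 0 of 14 members past the limma threshold, and 0 of them had an unadjusted p under 0.05. Over all 154 miRNAs, 0 passed (0%), 7 had an unadjusted p under 0.05, and 11% had groups that did not overlap, against 0 members. The lowest adjusted p by limma among members was 0.884, for miR-3069-3p, with a difference of -0.13. For palmitate 0 of 14 members passed by limma, 2 had an unadjusted p under 0.05, and 0% of all miRNAs passed, with 5 at an unadjusted p under 0.05. Groups did not overlap for 7.79% of all miRNAs and for 1 member, miR-3098-5p. With the labels exchanged the palmitate split takes the values given above for glucose, with 4 members apart and 2 past the threshold.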

How the data were processed

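The authors deposited Agilent Feature Extraction output (version 10.7.3.1, per the file headers), which holds a processed intensity per spot and a summed signal per miRNA, and a table of their own values. The scale of that table is not stated in the sources used here. The median of each of its columns, 0.00341 to 0.00475, equals the column's lowest value, and entries at that value counted as not detected. Here the spots of a probe that were not flagged as outliers were averaged, 18 in the median. The 75th percentile of the probes detected on all 6 arrays was set to the same level everywhere, values were floored at the lowest detected probe of the array and log2 was taken. A miRNA's level is that of its probe with the highest mean over the arrays, and the intensities printed are those before the floor. The 3 against 3 splits by oxygen, glucose and palmitate were fitted with limma 3.58.1 (R 4.3.3), two-sided, over the 154 miRNAs detected on all 6 arrays, with Benjamini-Hochberg adjustment at 0.05. The fit and the rule for single arrays were run on simulated data. For the fit, 2-fold changes were planted in the oxygen split. That run cannot decide how the fit handles the smaller differences of the glucose split. Comparisons of single arrays have no test. Every member detected on at least 1 array is named; undetected members are given by counts, except the 3 with the highest mean unscaled intensity and those whose opposite arm was detected. The members and lists were chosen with earlier results of these data known. The number of arrays limits the precision. Alternatives covered scaling, background correction, the summed signal, the choice of probe, detection, the exchanged labels, leaving out 1 array, and, chosen after seeing the data, the oxygen term and the authors' value table.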

Additional observations from a re-analysis of the deposited data

How the results depend on the processing

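Counts of members called moved with the settings as follows. High glucose against control went from 0 higher to 3 with no scaling and to 2 in the authors' value table, whose calls use the fold alone because it holds no spot errors. Palmitate went from 0 to 2 under all-probe scaling, the summed signal and the value table, and to 1 under median scaling, quantile normalisation and no scaling. Hypoxia went from 0 to 1, and rapamycin against triple stimuli from 0 to 1, in the value table. Triple stimuli went from 1 to 0 under all-probe scaling, median scaling, quantile normalisation, normexp and a 2-fold threshold, to 4 with no scaling and to 2 in the value table. The glucose split of 3 against 3 arrays went from 2 to 0 under all-probe scaling, median scaling, quantile normalisation, normexp, the exchanged labels and the value table, to 1 with miRNAs detected on at least 1 array, the oxygen term, the summed signal and the mean of all probes, and to 7 with no scaling; leaving out 1 array gave 0 to 3. The palmitate split went from 0 to 2 with exchanged labels and to 1 in the value table. The glucose difference of miR-3072-5p turned to -0.038 with exchanged labels (limma adjusted p = 0.977) and to -0.049 in the value table (0.973). The cause of these shifts was not tested. No paired analysis was possible because each condition has 1 array. For members near the detection limit, some ratios are to the lowest detected signal and give no minimum difference. Having 1 array per condition leaves the spread between cultures unmeasured.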
